A study of Mus musculus with 36 samples.

Results

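Polyadenylated RNA was sequenced from a line of mouse embryonic stem cells with a copy of Mesp1, the gene of a transcription factor of early mesoderm, that doxycycline (dox) induces. Cells kept in dox for 24 h were compared here with cells at 0 h, the starting state. The comparison takes 10 of the 36 libraries of the series, chosen by their labels alone. They are the 6 libraries at 24 h with dox of genotype WT, 2 in batch 1 and 4 in batch 2. The 4 libraries at 0 h, of genotype WT and without dox, are 2 in each batch. The 4 libraries at 24 h without dox of the same batches (2 in each) are given beside them. WT is the label that the series sets against a Zic2 knockout. Every library used, those without dox included, comes from cells that carry the inducible Mesp1. Cells were grown as hanging drops in a medium with serum, and hours are counted from a stage that the labels write as d2-5 and do not explain. The libraries at 24 h with dox thus differ from those at 0 h by a day of differentiation and by dox together, and the comparison measures the sum of both. No library used here was made from dox-treated cells that lack the transgene, so that dox and Mesp1 cannot be told apart. The labels name neither the promoter nor the clone behind the line. Whether replicates came from cultures of their own is not stated, so the spread behind each p-value is that of these libraries and may be technical.

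Mesp1 is a basic helix-loop-helix factor that is switched on in cells of the primitive streak as they turn into mesoderm, and it marks the forerunners of the heart and of part of the head muscles. Such factors bind DNA at short palindromic sites called E-boxes. At gastrulation, epiblast cells under Nodal, Wnt and Fgf signals first express streak genes such as T and Eomes. They then lose epithelial contacts (the epithelial to mesenchymal transition, EMT), migrate, and take on regional mesoderm programs, while pluripotency genes are shut off. A comparison with the starting state shows what remains of each of these steps after a day: a gene that peaks and declines within the day can end near its 0 h level.

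Between 12325443 and 44360795 counts were assigned to genes in each of the 10 libraries. Levels are given in CPM, counts per 1000000 counts assigned to genes, and a single count was worth 0.0225 CPM in the deepest library and 0.0811 CPM in the shallowest. Reads assigned to no gene came to between 4.12% and 9.46% of a library's counts. The highest share was in batch 1 replicate 1 at 24 h with dox, which was also the deepest library. In pairs of libraries of one condition and batch the root mean square difference over all genes tested was 0.443 to 0.935 on the log2 CPM scale. It was 1.32 to 1.74 between a library at 24 h with dox and one at 0 h of its batch. Between libraries at 24 h with dox of different batches it was larger, 2.27 to 2.36. The batches differed in which genes held counts, since 158 of 9250 genes above 4 log2 CPM in batch 1 had no count in any library of batch 2. Of these, 146 of the 152 with an annotation share over 50% of their exon bases with another gene. No source used here states whether the batches were counted with the same settings. Batch was a term in the fit. Among genes named below, 15 share over 20% of their exon bases with another gene (Hopx, Msc, Hoxb3, Hoxb2, Apela, Gbx2, Dll1, Nrarp, Fgf15, Rarb, Igf2, Snrpn, Pcdh7, Clvs1 and Ldhd). Their counts are uncertain, since the sources used here do not state whether strand was used in counting. The labels call all these cells pluripotent, a state that the factors Pou5f1 and Sox2 define. Pou5f1 stood at 117 to 242 CPM (median 200) at 24 h with dox, against 479 to 798 CPM at 0 h. Sox2 stood at 8.81 to 14.5 CPM (median 10.9) with dox, against 113 to 174 CPM at 0 h.

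Mesp1 itself had 183 and 348 CPM in batch 1 and 544, 209, 42.9 and 95.2 CPM in batch 2 at 24 h with dox, against 0.224 and 0.382 CPM in batch 1 and 0.532 and 0.386 CPM in batch 2 at 0 h. Every library with dox lay above every library at 0 h, and batch 2 held both the highest and the lowest of them. The log2 fold change was 10.01 ± 1.28 (± standard error, SE) with an adjusted p of 5.5e-06 (edgeR quasi-likelihood test, Benjamini-Hochberg adjustment over all genes tested, here and below). Without dox Mesp1 had 41.5 and 45.3 CPM in batch 1 and 0.808 and 1.5 CPM in batch 2 at 24 h, so that the uninduced libraries of the batches were themselves unlike. Counts do not separate transcripts of the transgene from those of the endogenous gene. Its neighbour and paralog Mesp2, which acts in the forming somites, stood at 0.4 to 1.3 CPM (median 0.698) in dox, against 0.504, 0.525, 0.836 and 0.849 CPM at 0 h, and was not called (0.25 ± 0.71). In the same test Mesp2 was lower with dox than without it at 24 h (-2.19 ± 0.64, adjusted p 0.0141). Without dox Mesp2 had 13.3 and 8.86 CPM in batch 1 and 0.462 and 0.627 CPM in batch 2 at 24 h. With dox it had 0.992 and 1.3 CPM in batch 1 and 0.4 to 0.809 CPM in batch 2. The libraries with and without dox thus lay apart in batch 1 only. Fewer cells of a type and less RNA per cell cannot be told apart in these bulk libraries, for this or any other gene.

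**Figure D1:**
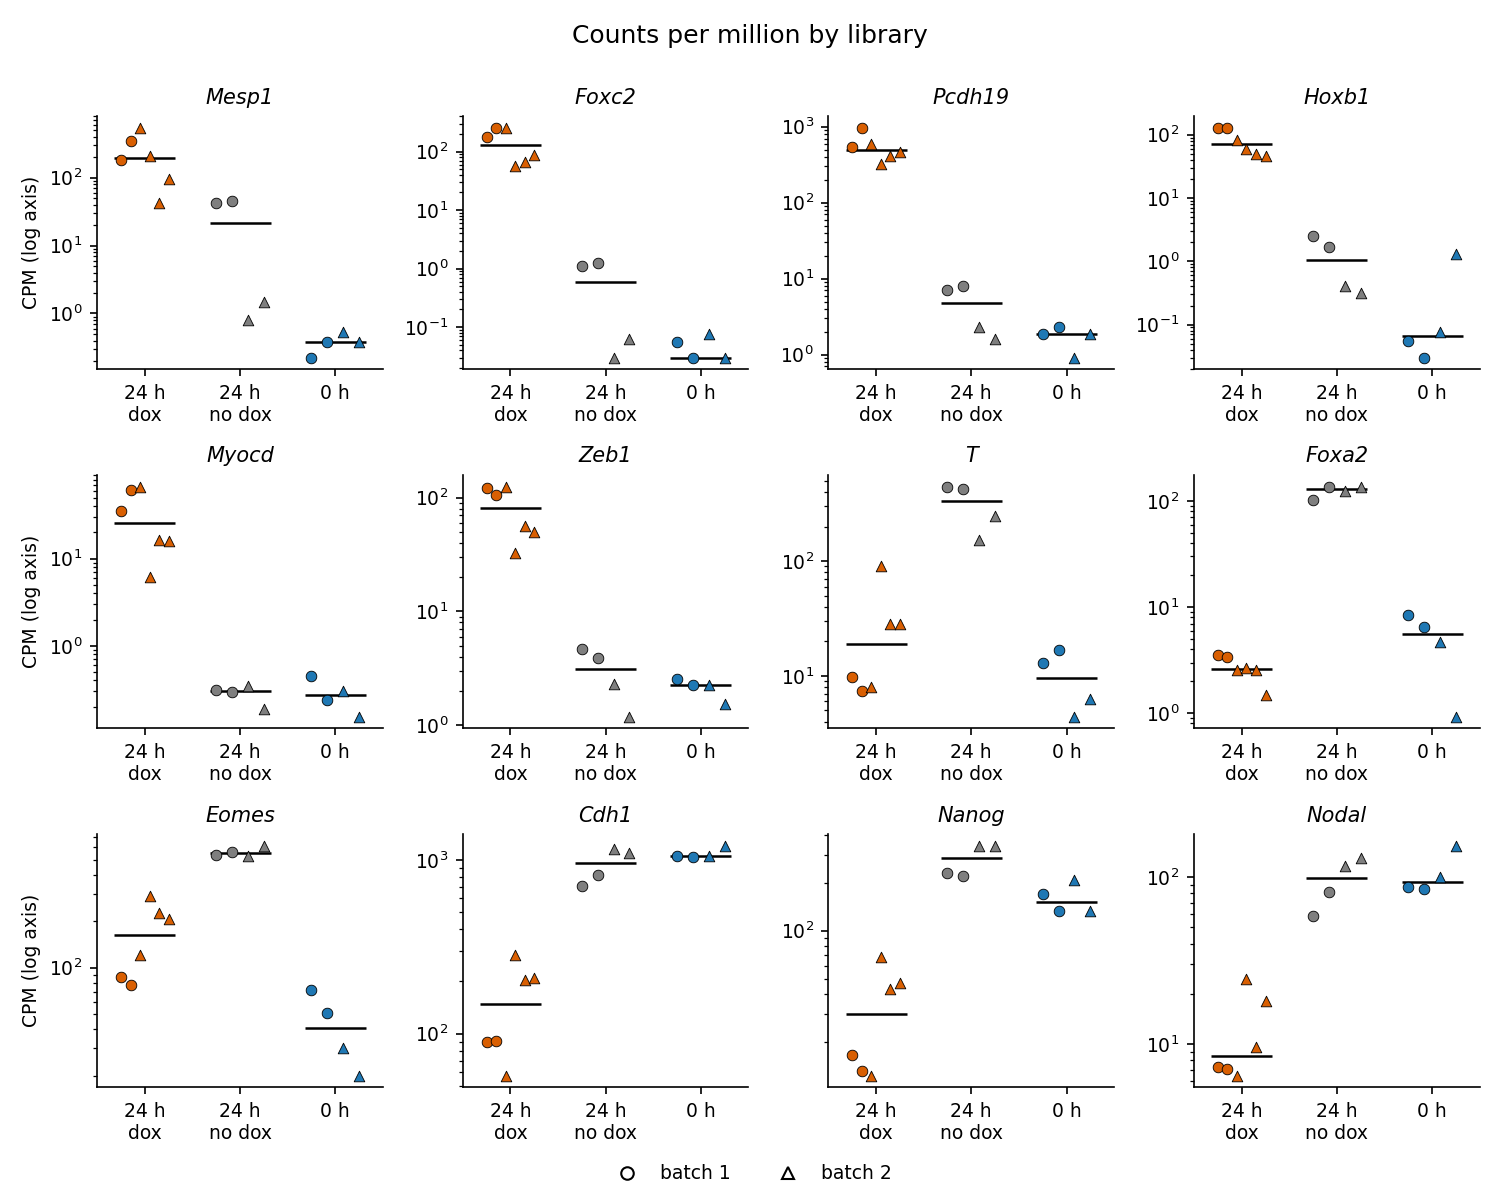
CPM (log axis, 0 drawn at 0.03) of 12 genes in each library at 24 h with dox (left, 6 libraries), at 24 h without dox (middle, 4) and at 0 h (right, 4), with batch 1 as circles, batch 2 as triangles and a bar at the group median. Mesp1 lies at 42.9 CPM or more in all 6 libraries with dox and at 0.532 CPM or less in all 4 at 0 h, while T overlaps between these groups and stands highest without dox.

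Of 18592 genes tested, 9789 (52.7%) differed between 24 h with dox and 0 h at an adjusted p below 0.05, 5094 (27.4%) of them higher with dox and 4695 (25.3%) lower. At least 2-fold changes made up 2621 (14.1%) higher and 2271 (12.2%) lower calls, and the median change of all genes tested was 0.01 (log2). A call by itself therefore says little here, and the counts of the gene groups below are to be read against these shares. They cover the members that passed the count filter, which for genes near 0 at the start means those with counts at 24 h. For 7307 genes (39.3%) every library with dox lay beyond every 0 h library of its batch in one direction, above it for 22.0% and below it for 17.3%. For 7093 of the 9789 called genes this was so in the called direction. The called change had the same sign in both batches for 4950 of the 5094 higher and 4538 of the 4695 lower genes. Tested in each batch alone, 14978 genes were common, and 2397 were called higher in both (67.5% of batch 1's and 76.3% of batch 2's higher calls). Another 2228 were lower in both (65.9% of batch 1's and 80.4% of batch 2's lower calls), and 7 were called in opposite directions. Across these genes, which are not independent replicates, the log2 fold changes of the batches had a Pearson r of 0.898. Batch 2 and batch 1 share no library, so that each gives its own value.

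**Figure D2:**
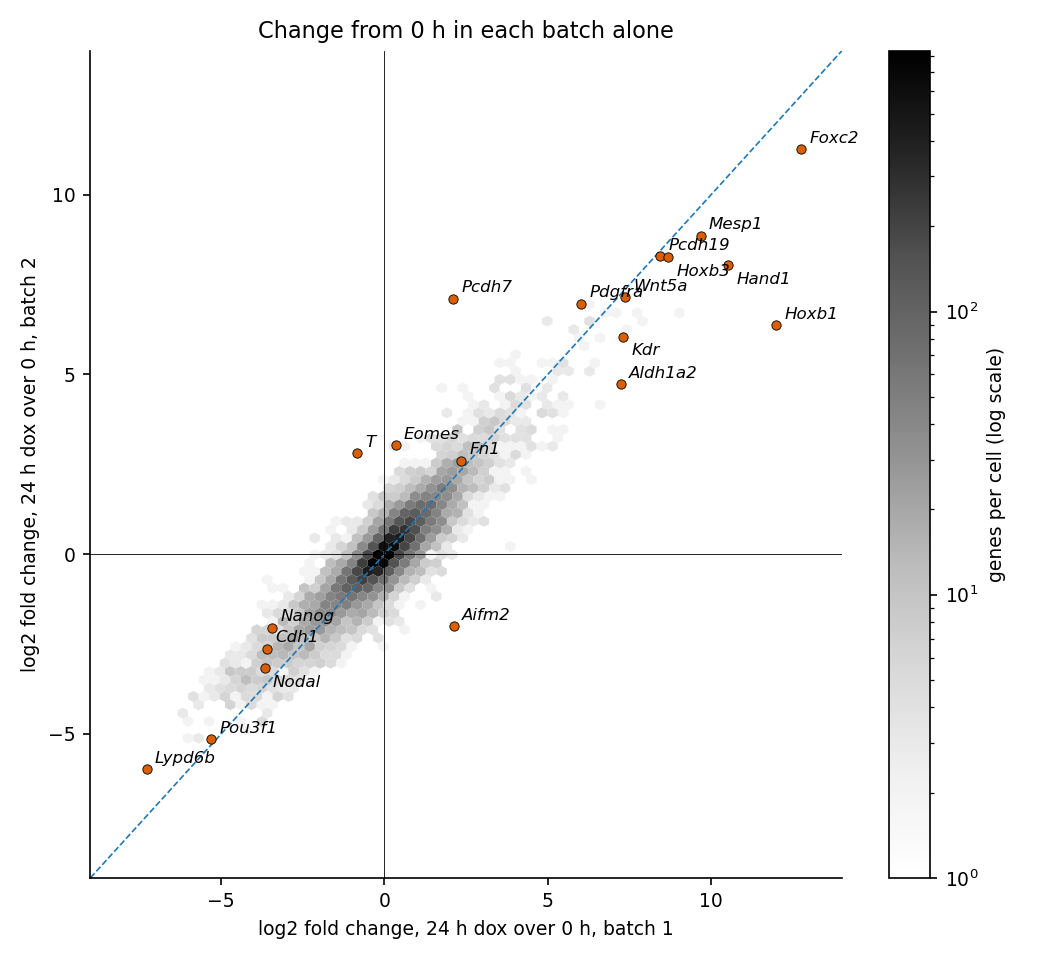
Log2 fold change of 24 h with dox over 0 h in batch 1 (x axis) and batch 2 (y axis) for the genes tested in both batches, fitted in each batch alone, as shaded counts of genes per cell, with 20 genes of the text marked. The genes lie along the diagonal (Pearson r 0.898 across 14978 genes), and Eomes and Aifm2 are among those off it.

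The largest rises belonged to genes that were at or near 0 counts at the start. Foxc2, a forkhead factor of paraxial and other mesoderm, had 55.6 to 258 CPM (median 132) in dox, against 0.056, 0, 0.076 and 0 CPM at 0 h. Lists of 4 values at 0 h give batch 1 replicates 1 and 2 and then batch 2 replicates 1 and 2, here and below. Over the groups this came to 17612 counts against 2, a ratio of 4990 in CPM with an exact 95% interval, for counting error only, of 1380 to 41200. Its relative Foxc1 rose by 8.98 ± 0.80 (log2), with 18.9 to 77.8 CPM (median 41.3) in dox, against 0.056, 0.143, 0.152 and 0.0772 CPM at 0 h. Hand1, a factor of lateral and heart-forming mesoderm that also acts in trophoblast, rose by 10.11 ± 1.01, with 11 to 91.1 CPM (median 34.6) against 0.056, 0.0477, 0.076 and 0.0772 CPM. Wnt2, a ligand made by early heart-forming mesoderm, rose by 9.06 ± 0.79, with 19.4 to 40.8 CPM (median 31.2) against 0.056, 0.143, 0 and 0.0772 CPM. The groups did not overlap for any of these genes, but the rule that named them required this within each batch. For Foxc2, Foxc1 and Hand1 the 3 highest libraries with dox were both of batch 1 and replicate 1 of batch 2. Chodl, which encodes the membrane lectin chondrolectin, had 6268 counts in dox against 2 at 0 h, a ratio of 1780 (interval 492 to 14700). Vwa5b1, with 906 counts against 0, was at least 171-fold higher, taking a floor of 3 counts over the 0 h group. Sorcs3, which encodes a sorting receptor and had 716 counts against 0, was at least 135-fold higher on the same floor. At 24 h without dox Hand1 (5.59 ± 1.17), Wnt2 (4.93 ± 0.90) and Foxc1 (4.03 ± 0.96) were higher than at 0 h as well. So was Vwa5b1 (8.18 ± 1.83), a size set by the fit, since it held 0 counts at 0 h. The levels without dox were far higher in batch 1 than in batch 2. Hand1 had 9.47 and 4.64 CPM in batch 1 and 0.115 and 0.188 CPM in batch 2. In the same order Wnt2 had 6.74 and 3.69 CPM, then 0.173 and 0.314 CPM. Foxc1 had 3.79 and 3.63 CPM, then 0.231 and 0.251 CPM. Vwa5b1 had 3.72 and 3.21 CPM, then 0.0577 and 0.0627 CPM. Foxc2, Chodl and Sorcs3 were not called between 24 h without dox and 0 h. Each of these genes was higher with dox than without it at 24 h.

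The largest falls, named under the same condition of libraries apart within each batch, were of genes low in all 6 libraries with dox. Lypd6b, whose product belongs to the Ly6 family, had 0 to 0.324 CPM (median 0.126) in dox, against 13, 12.8, 19.2 and 6.87 CPM at 0 h, and fell by 6.47 ± 0.44 (log2). Cbln4, a secreted cerebellin, fell by 6.47 ± 0.51, with 0 to 0.22 CPM (median 0.0461) against 5.09, 7.4, 6.99 and 4.56 CPM, and the receptor gene Gfra1 fell by 5.70 ± 0.48. Nphs1, which encodes the cell surface protein nephrin, stood at 0.0734 to 2.63 CPM (median 1.38) in dox, against 47, 48, 45.6 and 105 CPM at 0 h. Kirrel2, which encodes a related surface protein and lies next to Nphs1 on chromosome 7, was at 0.0734 to 1.49 CPM (median 0.678) in dox, against 21.2, 22.4, 24.5 and 44.8 CPM at 0 h. Wt1, a zinc finger factor, was at 0.22 to 1.18 CPM (median 0.688) in dox, against 22.4, 19.4, 24.4 and 29.9 CPM at 0 h. The largest 0 h value of Nphs1, Kirrel2 and Gfra1 was that of batch 2 replicate 2. Nphs1, Kirrel2 and Wt1 were lower than at 0 h at 24 h without dox as well (log2 fold change -3.08 ± 0.50 for Nphs1, -2.61 ± 0.41 for Kirrel2 and -3.25 ± 0.28 for Wt1). With dox each was also lower than at 24 h without it (for instance -3.02 ± 0.42 for Kirrel2 and -2.14 ± 0.29 for Wt1). Klhl14 (-5.53 ± 0.37) and the serotonin receptor gene Htr3a (-5.29 ± 0.36) completed the 8. Cbln4 (-2.45 ± 0.41), Gfra1 (-2.79 ± 0.43) and Htr3a (-0.91 ± 0.30) were likewise lower than at 0 h at 24 h without dox. Lypd6b and Klhl14 were not called in that comparison.

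Sequences around the start of 4 genes that carry the findings below are shown, since a basic helix-loop-helix factor was induced. Of these, 3 rose: Pcdh19 (an adhesion protein of forming somites and other tissues), Hoxb1 (the first Hox gene of the mesoderm) and Lfng (a sugar transferase that tunes Notch receptors). The other, Nodal (the ligand that maintains the epiblast and starts the streak), fell. Each is the RefSeq window of 250 bases before to 50 bases after the annotated start on GRCm38.p6, 5′ to 3′ on the gene's strand, with E-boxes (CANNTG, a pattern that reads alike on both strands) in capitals.
Pcdh19, chrX:133688944-133689243, minus strand: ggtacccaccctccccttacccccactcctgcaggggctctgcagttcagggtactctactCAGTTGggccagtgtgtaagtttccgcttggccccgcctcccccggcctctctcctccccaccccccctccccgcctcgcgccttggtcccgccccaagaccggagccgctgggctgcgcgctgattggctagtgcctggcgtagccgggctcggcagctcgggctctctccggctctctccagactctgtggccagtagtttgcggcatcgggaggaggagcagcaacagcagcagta
Hoxb1, chr11:96365508-96365807, plus strand: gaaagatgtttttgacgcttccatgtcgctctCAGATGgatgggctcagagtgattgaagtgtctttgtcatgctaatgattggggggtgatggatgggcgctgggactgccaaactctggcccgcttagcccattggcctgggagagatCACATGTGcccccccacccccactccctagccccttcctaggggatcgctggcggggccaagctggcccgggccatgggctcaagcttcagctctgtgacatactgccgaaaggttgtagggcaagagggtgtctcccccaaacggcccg
Lfng, chr5:140607091-140607390, plus strand: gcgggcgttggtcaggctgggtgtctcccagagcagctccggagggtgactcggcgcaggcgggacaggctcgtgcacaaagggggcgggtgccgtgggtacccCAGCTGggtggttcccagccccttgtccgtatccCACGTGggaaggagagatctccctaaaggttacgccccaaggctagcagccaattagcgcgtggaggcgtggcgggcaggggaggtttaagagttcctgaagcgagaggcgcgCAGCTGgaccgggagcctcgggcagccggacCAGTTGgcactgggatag
Nodal, chr10:61417722-61418021, plus strand: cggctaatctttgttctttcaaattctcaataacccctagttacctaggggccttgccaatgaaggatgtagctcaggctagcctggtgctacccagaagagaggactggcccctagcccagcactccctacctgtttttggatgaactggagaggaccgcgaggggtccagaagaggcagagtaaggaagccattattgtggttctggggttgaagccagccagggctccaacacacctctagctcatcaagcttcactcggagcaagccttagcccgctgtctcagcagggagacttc
The window of Pcdh19 holds 1 E-box, that of Hoxb1 3 (a pair of which overlap in the run CACATGTG), that of Lfng 4 and that of Nodal 0. Across all 32851 windows, 72.3% hold at least 1, 17.6% at least 3 and 6.49% at least 4. A match is a run of letters, and its use by any factor was not measured.

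Pcdh19 had 326 to 977 CPM (median 502) in dox, against 1.85, 2.34, 0.912 and 1.85 CPM at 0 h, and rose by 8.48 ± 0.41 (adjusted p 3.2e-10). Lfng had 72.5 to 159 CPM (median 98.5) in dox, against 3.92, 4.54, 3.57 and 2.78 CPM at 0 h (4.96 ± 0.31, adjusted p 3e-09). Neither overlapped between the groups, and both rose in each batch, Lfng by 4.98 ± 0.28 in batch 1 and 4.73 ± 0.27 in batch 2. Nodal had 6.45 to 24.5 CPM (median 8.46) in dox, against 86.8, 84.9, 99.8 and 155 CPM at 0 h, and fell by 3.37 ± 0.26. Without dox Nodal kept 58.9 to 131 CPM at 24 h, and the change from 0 h was not called (-0.24 ± 0.27).

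Paraxial mesoderm is the tissue of somites and of part of the head. Of its list, 15 of 18 genes tested rose and 0 fell, with a median of 5.01 (log2) beside 0.01 for all genes. Uncx and Pax1 were not tested. Beside Foxc1, Foxc2, Pcdh19 and Lfng, Dll3, a Notch ligand of the presomitic mesoderm, had 150 to 334 CPM (median 238) in dox, against 6.71, 3.68, 6.46 and 11.7 CPM at 0 h (5.05 ± 0.47). Rspo3, which boosts Wnt signals, rose by 5.16 ± 0.37, Tbx6, a factor required for paraxial fate, by 5.61 ± 0.62, and Ripply2, a repressor at somite borders, by 7.42 ± 0.97. Pax3, a factor of the early somite and dorsal neural tube, had 2.29 to 18.8 CPM (median 8.15) against 0.392, 0.0477, 0.076 and 0.386 CPM (5.37 ± 0.73). At 24 h without dox it was near 0 (0.0627 to 0.178 CPM). The presomitic gene Msgn1 had 2 counts over all 6 libraries with dox and 1 over the 4 at 0 h. Tcf15, a factor of forming somites, was not called (0.23 ± 0.50), with 3.56 to 38.7 CPM (median 13.3) against 13.7, 14.6, 14.1 and 14.5 CPM. Tcf15 fell without dox (-2.16 ± 0.59) and was higher with dox than without it at 24 h (2.39 ± 0.56). Ripply2 and Pax3 were above 12 CPM in both batch 1 libraries and in replicate 1 of batch 2, and under 4.5 CPM in the other batch 2 libraries with dox.

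Among regulators of heart precursors, 17 of 19 tested rose and 1 fell, with a median of 3.80. Beside Hand1 and Wnt2, Foxf1, a forkhead factor of lateral mesoderm, had 9.39 to 54.7 CPM (median 18.8) in dox, against 0.168, 0.191, 0.076 and 0.232 CPM at 0 h (7.76 ± 0.67). Myocd, the coactivator of cardiac and smooth muscle genes, had 6.15 to 66.9 CPM (median 25.7) against 0.448, 0.239, 0.304 and 0.154 CPM (6.93 ± 0.73), with 0.188 to 0.346 CPM at 24 h without dox. Hey2, a Notch target that acts in the ventricle, rose by 4.55 ± 0.41, and Mef2c, a factor of the second heart field, by 3.72 ± 0.39. Gata4, a core cardiac factor, rose by 2.83 ± 0.57 with 104 to 150 CPM (median 140) against 21.6, 37.2, 28.1 and 7.03 CPM. Gata6, a relative of Gata4, rose by 2.29 ± 0.46 to 16.2 to 34.8 CPM (median 22.5). Without dox it had 55.2 and 57.9 CPM in batch 1 and 4.62 and 6.21 CPM in batch 2 at 24 h. The level with dox was not called different from that without it (0.37 ± 0.45, adjusted p 0.612). The later factor Nkx2-5 stayed low, at 0.229 to 0.88 CPM (median 0.44) against 0, 0.239, 0.076 and 0.232 CPM. Its call was lost without batch 1 replicate 1 at 0 h, batch 2 replicate 1 at 0 h or either batch 1 library with dox (1.34 to 1.80), in batch 2 alone (1.71) and without a batch term (1.82). Hopx, which acts in differentiating heart muscle, was the member that fell (-3.51 ± 0.34). Tbx5 and Irx4 had too few counts to be tested.

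Of 15 sarcomere and contraction genes of formed heart muscle that were tested, 8 rose and 3 fell (median 1.29), and 4 of the 19 listed, Myl2, Pln, Nppa and Smyd1, had too few counts to be tested. Actc1, the actin of embryonic heart and muscle, rose by 3.60 ± 0.24 with 14 to 23.5 CPM (median 19.2) against 2.57, 2.24, 0.836 and 1.08 CPM. The formin gene Fhod3 rose by 1.78 ± 0.25 and Nebl by 2.35 ± 0.35. Tnnt2, the troponin T of heart muscle, rose by 2.71 ± 0.52 but only to 0.324 to 2.66 CPM (median 1.08), against 0.168, 0.191, 0.152 and 0.309 CPM. Myh6, a heavy chain of heart myosin, fell by 2.79 ± 0.39. Of 15 genes of head and cardiopharyngeal mesoderm, 11 rose and 2 fell (median 2.38). Ebf2, an early B-cell factor also made in mesenchyme, had 16.7 to 28 CPM (median 21.1) against 0.392, 0.143, 0 and 0.309 CPM (6.63 ± 0.43). The homeobox genes Prrx1 and Prrx2 of limb and head mesenchyme rose by 5.26 ± 0.38 and 4.01 ± 0.44. Isl1, a factor of the second heart field, rose by 3.01 ± 0.57 to 3.32 to 7.3 CPM (median 3.61), against 0.112, 0.668, 0.684 and 0.927 CPM at 0 h. Msc, a repressor made in branchial muscle precursors, fell by 4.30 ± 0.43.

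Early Hox genes, which set position along the body axis, were at or near 0 at the start. Of 15 listed Hox genes of groups 1 to 5, 8 could be tested, and each was called higher. With levels near 0 at the start a gene passes the count filter only through libraries where it is high, so that this count is fixed in part by the filter and is given as a description. The 7 that were not tested held 1 to 59 counts over the 6 libraries with dox and 0 to 8 over the 4 at 0 h. Hoxb1 had 46.7 to 130 CPM (median 70.8) in dox, against 0.056, 0, 0.076 and 1.31 CPM at 0 h (8.18 ± 0.67, adjusted p 4.8e-08). Hoxb3 had 211 and 133 CPM in batch 1 and 24.1, 14.9, 7.87 and 11.9 CPM in batch 2 with dox, against 0.448, 0.334, 0 and 0.0772 CPM at 0 h (8.69 ± 0.47). Hoxb2 had 12.8 to 82.7 CPM (median 14.1) against 0.392, 0.334, 0.152 and 0.0772 CPM (7.49 ± 0.36). Exons of Hoxb2 and Hoxb3 share 27.3% and 52.9% of their bases with another gene, so that reads of these genes may be mixed. The 8 genes were called higher with dox than without it at 24 h as well, beside 15.4% of all genes, and the same limit holds. None was called between 24 h without dox and 0 h by edgeR, beside 25.1% of all genes (0 of 8, with 2 at an unadjusted p below 0.05, and 1 of 8 called by DESeq2). The filter limits this count too. With few counts in both groups compared, calls were unlikely, so that the share of all genes is no measure for it. Of the posterior Hox and Cdx genes only 4 of 15 passed the count filter, with Cdx1 (3.46 ± 0.83) and Cdx2 (1.75 ± 0.50) higher, and both at or under 2.75 CPM in every library with dox.

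**Figure D3:**
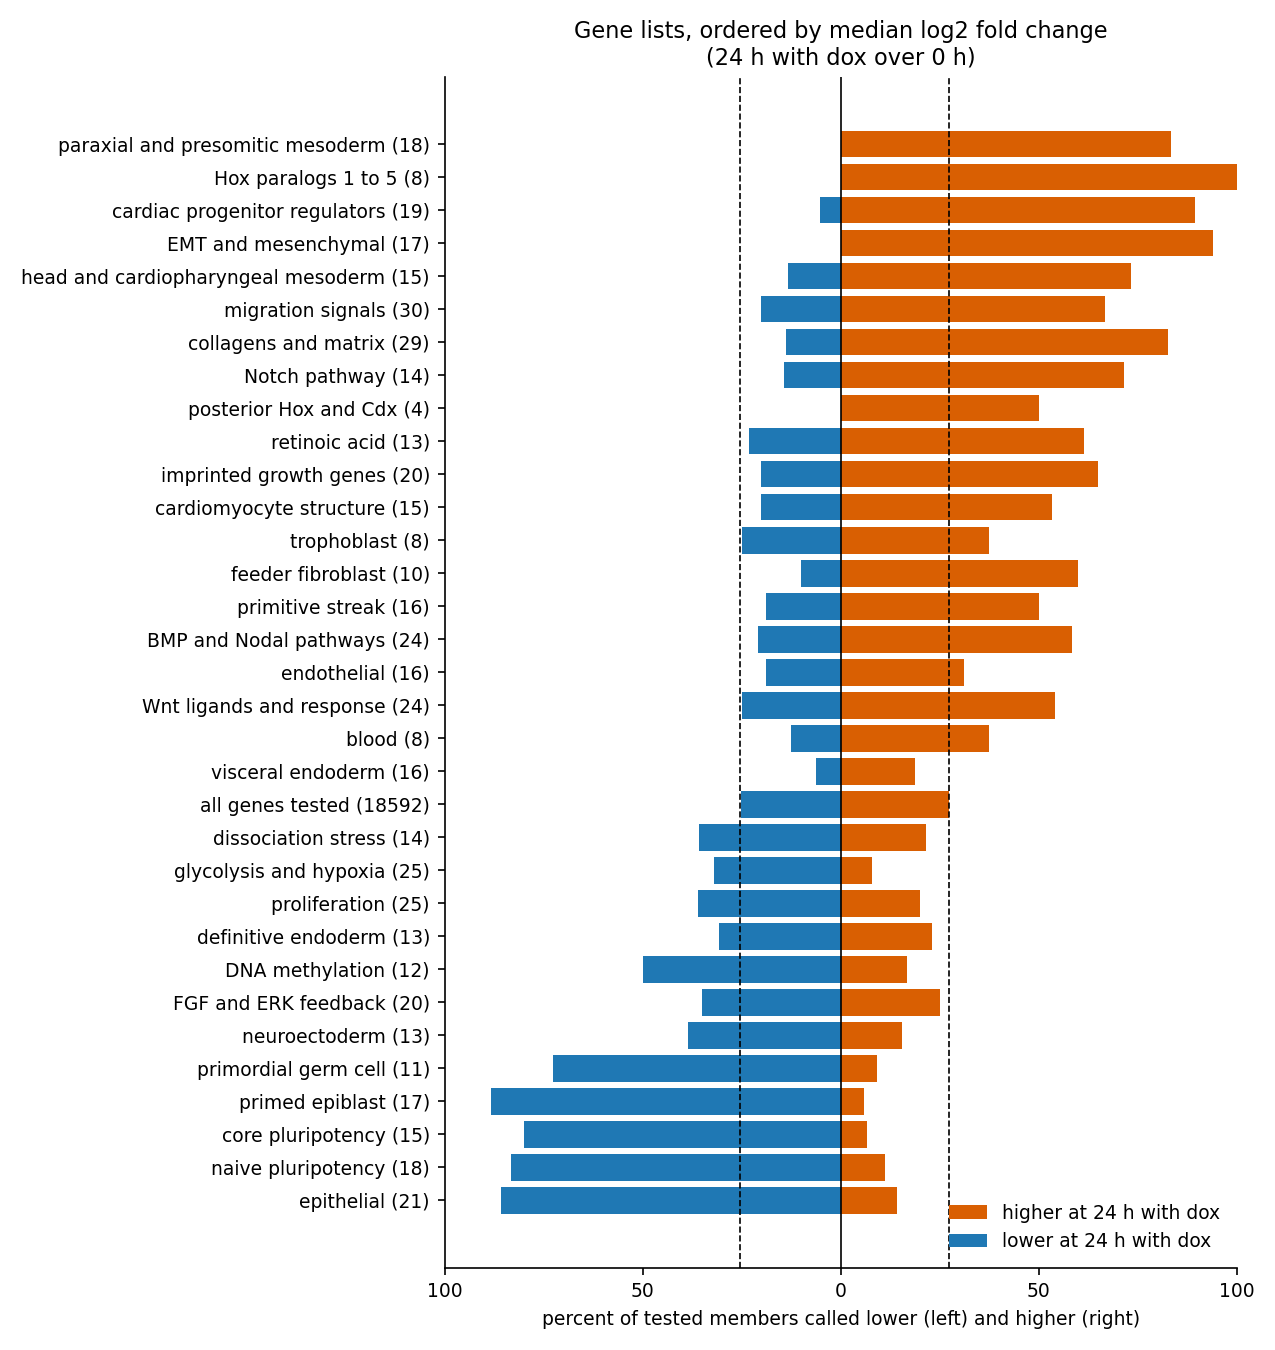
Share of the tested members of each gene list called higher (right, orange) or lower (left, blue) at 24 h with dox against 0 h, with dashed lines at the shares of all 18592 genes (27.4% higher, 25.3% lower) and the number tested beside each list. Among lists with at least 15 genes tested, EMT and mesenchymal (16 of 17) and cardiac progenitor genes (17 of 19) have the highest shares called higher, and primed epiblast (15 of 17), epithelial (18 of 21) and naive pluripotency genes (15 of 18) the highest shares called lower.

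Genes of the mesenchymal state rose and those of the epithelium fell. Of 17 EMT and mesenchymal genes 16 rose and 0 fell (median 2.69), and of 21 epithelial genes 18 fell and 3 rose (median -2.63). Cdh1 (E-cadherin), the adhesion protein of epithelia, had 89.4 and 91.4 CPM in batch 1 and 57.4, 282, 204 and 210 CPM in batch 2 with dox, against 1050, 1040, 1050 and 1210 CPM at 0 h (-3.04 ± 0.30, adjusted p 2.8e-07). The highest of the 6 libraries with dox was far below the lowest at 0 h. Pdgfra, the receptor that marks mesoderm and mesenchyme, had 436 to 840 CPM (median 539) against 8.84, 14.7, 4.86 and 2.78 CPM (6.77 ± 0.47). Zeb1, a repressor of epithelial genes, had 32.4 to 125 CPM (median 81.1) against 2.57, 2.24, 2.28 and 1.54 CPM (5.31 ± 0.39) and stayed at 1.19 to 4.71 CPM at 24 h without dox. Snai1, a repressor of Cdh1 that acts at the streak, rose by 5.34 ± 0.42 with dox and by 3.48 ± 0.41 without. Twist1, a mesoderm factor, rose by 4.96 ± 0.40 with dox, without a call in the absence of dox (1.05 ± 0.41). Cdh2 (N-cadherin) rose to 120 to 165 CPM (median 140), against 34.8, 32.3, 24.2 and 12.6 CPM at 0 h (2.65 ± 0.31). It was not called different from the uninduced level at 24 h (0.11 ± 0.29). That level was 258 and 280 CPM in batch 1 and 70 and 80.8 CPM in batch 2, above the dox libraries in the first batch and below them in the second. Snai2 was the member not called (-0.24 ± 0.43).

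Parts of tight junctions fell steeply. Ocln (occludin) had 2.4 to 4.89 CPM (median 3.08) in dox, against 33.2, 41.3, 27.3 and 19.7 CPM at 0 h (-3.17 ± 0.13, adjusted p 4.9e-11). Tjp3 had 1.32 to 1.86 CPM (median 1.49) in dox, against 19, 21.5, 21 and 13 CPM at 0 h (-3.63 ± 0.17). Marveld3 had 0.649 to 1.29 CPM (median 1.03) against 22.8, 19.9, 18.4 and 10.9 CPM (-4.26 ± 0.22). These 3 had the smallest p of the falling epithelial genes, and each library with dox was below every library at 0 h. Claudin genes Cldn6 and Cldn7 fell by 2.39 ± 0.18 and 3.43 ± 0.23, and Epcam by 2.56 ± 0.22. The 3 members that rose were Dsp (desmoplakin, 2.45 ± 0.23), and the keratin genes Krt8 (1.11 ± 0.31) and Krt19 (0.75 ± 0.26), all of which also rose without dox. The call of Krt19 against 0 h was lost in 7 alternatives, at 0.45 to 1.10, among them each batch alone, the 10 libraries alone, no batch term, and leaving out batch 1 replicate 1 (0.74) or batch 2 replicate 2 (0.55) at 0 h.

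Matrix genes rose broadly, 24 of 29 tested against 4 that fell (median 1.74). Fn1 (fibronectin), the substrate on which mesoderm migrates, was at 2010 to 3490 CPM (median 2630) in dox, against 535, 500, 348 and 521 CPM at 0 h (2.62 ± 0.36). Fbn2 (fibrillin 2) had 122 to 286 CPM (median 158) against 5.65, 9.26, 6 and 5.56 CPM (4.93 ± 0.41), Col26a1 rose by 5.84 ± 0.45, and Has2, which makes hyaluronan, by 1.37 ± 0.10. Laminin chains moved apart: Lama1 rose by 2.76 ± 0.37 with 180 to 377 CPM (median 255) against 44.3, 77.1, 40.8 and 25.3 CPM. Lama5 fell by 2.51 ± 0.20 with 61.5 to 151 CPM (median 78) against 426, 443, 424 and 596 CPM. Col18a1 (-1.83 ± 0.18) and Nid2 (-1.16 ± 0.17), of basement membranes, fell too, and Lamc1 was the other member that fell (-0.51 ± 0.15, not called at -0.35 without batch 2 replicate 2 at 0 h or at -0.22 in batch 1 alone).

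Of 30 genes of migration and guidance signals, 20 rose and 6 fell (median 2.25). Receptor genes were among the rises. Unc5c, a netrin receptor, had 11.6 to 67.2 CPM (median 19.3) against 0.392, 0.286, 0.076 and 0.309 CPM (7.05 ± 0.45). Nrp2, a semaphorin and Vegf coreceptor, had 126 to 196 CPM (median 155) in dox, against 7.39, 7.88, 4.56 and 8.88 CPM at 0 h (4.47 ± 0.24). Epha4, an ephrin receptor, had 328 to 533 CPM (median 381) against 14.3, 11.5, 10.1 and 26.1 CPM (4.69 ± 0.33). Cxcr4, the chemokine receptor of migrating mesoderm and endoderm, had 72.7 to 117 CPM (median 99.4) against 1.68, 1.24, 1.14 and 1.39 CPM (6.58 ± 0.79). Its ligand gene Cxcl12 fell by 2.73 ± 0.22, with 8.14 to 18.5 CPM (median 11.7) against 71.5, 71.2, 61.3 and 83.6 CPM. Sema3c and Sema3e, which encode secreted semaphorins, fell by 4.45 ± 0.30 and 2.77 ± 0.33. The apelin receptor gene Aplnr rose by 7.31 ± 0.83 to 43.5 to 64.9 CPM (median 51.2). Without dox it had 112 and 110 CPM in batch 1 and 7.96 and 8.65 CPM in batch 2, again on either side of the dox libraries. Its difference between dox and no dox at 24 h was not called (0.80 ± 0.63, adjusted p 0.394). The ligand genes of that receptor did otherwise. Apln stood at 4.19 to 7.78 CPM (median 6.52) in dox, against 8.45, 6.59, 5.47 and 3.86 CPM at 0 h (log2 fold change 0.00 ± 0.28), and at 77 to 102 CPM without dox. Apela fell by 2.35 ± 0.37.

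Genes of pluripotency fell, the factors of the naive state, the shared core and the primed epiblast alike. Of 18 naive genes 15 fell (median -2.58), of 15 core genes 12 (median -1.84), and of 17 epiblast genes 15 (median -1.68), beside 25.3% lower calls over all genes. At 24 h without dox 11 naive, 5 core and 7 epiblast genes were called lower than at 0 h, beside 11.7% of all genes. With dox 7 naive, 11 core and 13 epiblast genes were lower than without it at 24 h, beside 14.6%. In that comparison 3 naive, 1 core and 1 epiblast gene were higher. Pou3f1, a POU factor of the primed epiblast, had 3.83 to 6.8 CPM (median 4.89) in dox, against 185, 160, 178 and 178 CPM at 0 h (-5.21 ± 0.16, adjusted p 2e-12). It was low in each of the 6. Eras, a Ras-like gene of stem cells, had 0.44 to 1.86 CPM (median 1.33) against 35.9, 30.9, 42.4 and 23.4 CPM (-4.77 ± 0.23). Foxd3 had 1.78 to 5.79 CPM (median 2.26) against 68.4, 72.1, 55.1 and 47.2 CPM (-4.46 ± 0.29). Nr0b1 (-4.86 ± 0.35) and Sox2 (-3.78 ± 0.23) were also at a low level in every library with dox. Both fell without dox too (-3.78 ± 0.37 for Nr0b1 and -1.44 ± 0.24 for Sox2). Pou5f1 fell less with dox, by 1.70 ± 0.16. Nanog had 16.5 and 13.1 CPM in batch 1 and 12.3, 68.2, 43.2 and 46.8 CPM in batch 2 with dox, against 169, 134, 208 and 133 CPM at 0 h (-2.61 ± 0.33). At 24 h without dox it was at 222 to 343 CPM. Fgf5, the ligand that marks the epiblast, had 5.55 and 7.14 CPM in batch 1 and 10.2, 45.1, 41.6 and 36.2 CPM in batch 2 with dox, against 148, 122, 130 and 97.6 CPM at 0 h (-2.79 ± 0.45). It had 190 to 257 CPM at 24 h without dox.

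The members that rose were few. Klf4 (1.62 ± 0.37) and Tbx3 (2.36 ± 0.58), factors also made outside stem cells, rose among the naive genes, and Sall4 (0.69 ± 0.15) among the core genes. Klf4 rose by 2.62 in batch 1 alone and was not called in batch 2 alone (0.91). In batch 2 replicate 1 with dox stood at 15.8 CPM and the other 3 libraries with dox at 5.29 to 6.80 CPM. Lef1, a partner of beta-catenin in Wnt signaling, rose among the epiblast genes (2.67 ± 0.23, 150 to 258 CPM (median 182) against 36.8, 37.4, 24.2 and 28.2 CPM). Gbx2 was not called against 0 h (0.49 ± 0.36, but called at 1.18 in batch 1 alone) although it fell without dox (-1.71 ± 0.43) and was higher with dox than without at 24 h (2.21 ± 0.40). The DNA methyltransferase gene Dnmt3b, which is high in epiblast, had 259 to 773 CPM (median 514) in dox, against 2440, 2330, 2830 and 2360 CPM at 0 h (-2.51 ± 0.22). Of 12 genes of DNA methylation 6 fell and 2 rose. Dnmt3l fell by 3.50 ± 0.41 and the demethylating enzyme gene Tet1 by 1.82 ± 0.18, whereas Tet3 rose by 0.96 ± 0.19, and Dnmt1, which copies methylation marks, was not called (-0.12 ± 0.11).

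Most genes of the primitive streak and organizer were lower at 24 h with dox than at 24 h without it. Against 0 h, 8 of 16 rose, 3 fell and 5 were not called with dox (median 1.02). At 24 h without dox 14 rose and 0 fell (median 4.62), in a comparison that uses the same 0 h libraries and calls 13.5% of all genes higher and 11.7% lower. Tested directly, 12 of the 16 were lower with dox than without it at 24 h, beside 14.6% of all genes, and 1 was higher, Mesp1. T (brachyury), the factor of streak and notochord, had 9.81 and 7.38 CPM in batch 1 and 8.07, 90.9, 28.5 and 28.3 CPM in batch 2 with dox, against 12.9, 16.7, 4.41 and 6.33 CPM at 0 h. The groups overlapped and T was not called (1.48 ± 0.73, adjusted p 0.099). In batch 1 alone it was called lower (-0.85) and in batch 2 alone higher (2.81). It was called higher in the joint fit once batch 1 replicate 1 or 2 with dox was left out (1.99 and 1.98) or no count filter was used (1.49). Without dox it stood at 154 to 447 CPM at 24 h. Foxa2, a factor of organizer and endoderm, had 1.49 to 3.52 CPM (median 2.62) with dox against 8.34, 6.54, 4.71 and 0.927 CPM at 0 h, and 103 to 137 CPM without dox. The change from 0 h was not called (-0.89 ± 0.40, or called lower at -1.25 without batch 2 replicate 2 at 0 h and at -0.87 without a count filter), and the level with dox was lower than without it (-5.50 ± 0.37). Gsc, of the organizer, had 0.487 to 3.24 CPM (median 0.931) with dox against 3.02, 1.43, 1.29 and 0.386 CPM, and Fst, an activin antagonist, 18.6 to 26.8 CPM (median 21.8) against 36.1, 26.4, 18.4 and 30.7 CPM. Neither was called against 0 h (-0.19 ± 0.60 and -0.41 ± 0.20, Fst being called lower in 3 alternatives, at -0.60 to -0.39). Both were lower with dox than without (-4.83 ± 0.52 and -3.79 ± 0.20).

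Some streak genes stayed above the start. Eomes, the T-box factor upstream of Mesp1, had 87.2 and 76.7 CPM in batch 1 and 120, 290, 227 and 205 CPM in batch 2 with dox, against 71.3, 51, 30.1 and 20 CPM at 0 h (1.81 ± 0.42). In batch 1, where it was not called alone, this was a change of 0.35 ± 0.30 and in batch 2 of 3.02 ± 0.31, a difference that was itself called (adjusted p 0.0194). Without dox Eomes reached 524 to 616 CPM. Lhx1, a homeobox factor of node and nascent mesoderm, rose by 4.93 ± 0.71 with dox to 71.6 and 71 CPM in batch 1 and 75.5, 200, 152 and 138 CPM in batch 2. Without dox it had 389 and 414 CPM in batch 1 and 47.1 and 50.6 CPM in batch 2. The difference between dox and no dox at 24 h was not called (-0.20 ± 0.65, adjusted p 0.869). Cer1, a secreted antagonist of Nodal and Bmp, rose by 3.59 ± 0.47 and was lower with dox than without (-2.25 ± 0.35). Fgf8, a ligand needed for cells to leave the streak, fell below the start by 2.14 ± 0.41, with 2.37 to 8.73 CPM (median 7.41) against 36.1, 32.3, 42.3 and 7.88 CPM, and 65.7 to 156 CPM without dox. Of 13 genes of definitive endoderm, 3 rose and 4 fell against 0 h. At 24 h 10 were lower with dox than without it, beside 14.6% of all genes. Against 0 h Cer1, Cxcr4 and Gata6 rose, and Trh, which encodes thyrotropin-releasing hormone, fell by 3.61 ± 0.45. Sox17, the defining factor of definitive endoderm, was not called (1.51 ± 0.75, but called higher in 3 alternatives, at 1.52 to 1.83), with 0.229 to 11.8 CPM (median 2.57) against 2.46, 3.82, 1.06 and 0.695 CPM.

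**Figure D4:**
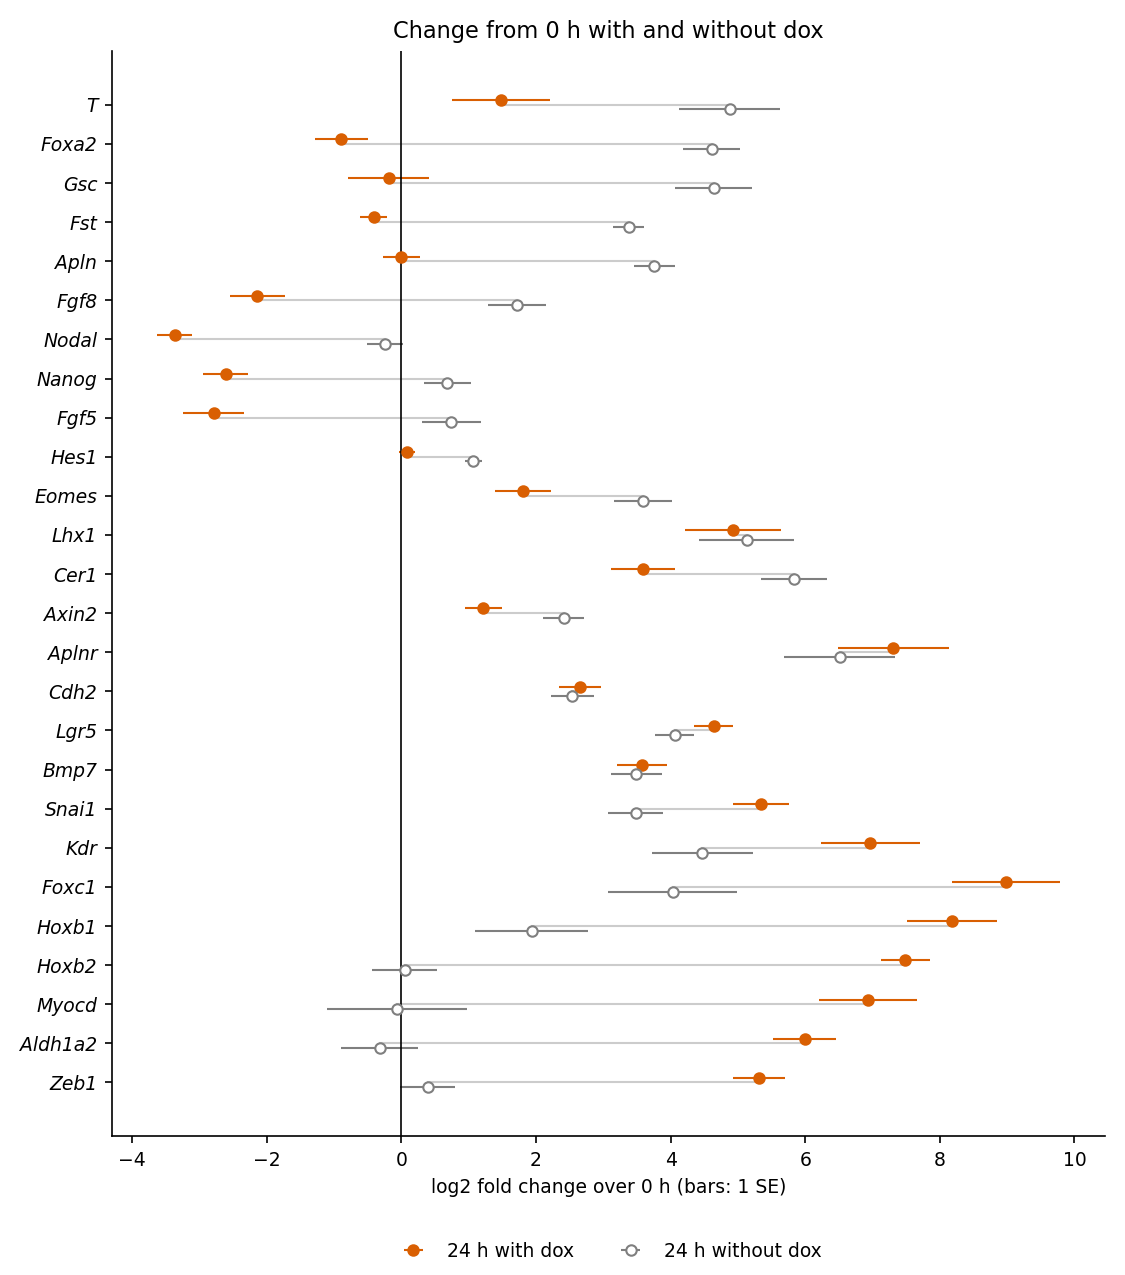
Log2 fold change from 0 h at 24 h with dox (filled orange) and at 24 h without dox (open grey) for 26 genes, with bars of 1 SE, both from the same fit and sharing the 0 h libraries. For Foxa2, Gsc, Fst and Apln the point with dox lies between -0.89 and 0.00 and that without dox between 3.38 and 4.64. For Hoxb2, Myocd, Aldh1a2 and Zeb1 the points lie between 5.31 and 7.49 with dox and between -0.32 and 0.39 without.

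Signaling genes went in both directions within each pathway, as did all genes tested (27.4% higher and 25.3% lower). Of 14 Notch pathway genes 10 rose and 2 fell (median 1.66). The receptor gene Notch1 had 358 to 1120 CPM (median 522) in dox, against 31.6, 38.8, 23.6 and 36.5 CPM at 0 h (4.30 ± 0.32, adjusted p 1.4e-08). It was at 23.9 to 57.7 CPM at 24 h without dox. The ligand genes Dll1 (3.47 ± 0.65) and Jag1 (1.39 ± 0.30) rose and Jag2 fell (-2.03 ± 0.22), and Nrarp, a Notch target and feedback gene, rose by 4.22 ± 0.58. Hes1, the widely used target of Notch, had 29.4 to 35.8 CPM (median 32.8) against 31.1, 30.7, 31.3 and 28.8 CPM, so that the groups overlapped and no change was called (0.08 ± 0.12).

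Of 24 genes of Wnt ligands and response 13 rose and 6 fell (median 0.66). At 24 h without dox 15 rose and 1 fell (median 2.13), beside 13.5% and 11.7% of all genes. With dox 8 were higher and 10 lower than without it, beside 15.4% and 14.6%. Wnt5a, the ligand of non-canonical Wnt signals, had 151 to 266 CPM (median 202) in dox, against 1.57, 1.19, 0.456 and 2.08 CPM at 0 h (7.65 ± 0.67). The receptor gene Lgr5 rose by 4.64 ± 0.29, as it did without dox (4.06 ± 0.29). Axin2, a target of canonical Wnt, rose by 1.22 ± 0.28 against 0 h and was lower with dox than without it (-1.19 ± 0.25). The streak ligand gene Wnt8a was not called (-0.29 ± 0.36) and was lower with dox than without (-2.56 ± 0.35). Fzd8 (-1.75 ± 0.21) and Rspo1 (-1.44 ± 0.18), a receptor and an agonist gene, fell.

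In the BMP and Nodal pathways 14 of 24 rose and 5 fell. The rises included BMP genes, with the ligand gene Bmp7 up by 3.57 ± 0.37, the target Msx2 by 5.15 ± 0.57 and the inhibitor Smad6 by 2.25 ± 0.34. The falls included genes of the Nodal side, with Nodal, Lefty1, its antagonist (-4.92 ± 0.43, 1.47 to 21 CPM (median 5.56) against 137, 169, 193 and 335 CPM), and Gdf3, a coligand (-4.47 ± 0.59). Lefty2, the antagonist made in nascent mesoderm, was not called (0.16 ± 0.51). Its fold change was -1.65 ± 0.45 in batch 1 and 1.35 ± 0.40 in batch 2 (adjusted p of the difference 0.0836, not called). It was called lower in batch 1 alone (-1.66). The receptor genes Fgfr1 (1.86 ± 0.16), Fgfr2 (1.10 ± 0.22) and Fgfr3 (1.92 ± 0.28) rose, as did the ligand genes Fgf10 (4.50 ± 0.44) and Fgf3 (4.95 ± 0.78). The ligand genes Fgf4, Fgf5, Fgf8, Fgf15 and Fgf17 fell, by 1.58 to 3.52 (log2). In all, 5 of 20 genes of Fgf signals and their feedback rose and 7 fell, counts near the shares of all genes (27.4% and 25.3%). Etv5, a target of the pathway, had 24.2 and 46 CPM in batch 1 and 68.1, 251, 250 and 233 CPM in batch 2 with dox, against 415, 409, 471 and 584 CPM at 0 h (-2.32 ± 0.41). Spry4, an inhibitor that the pathway induces, had 10.8 and 16.2 CPM in batch 1 and 13.8, 72.9, 73.3 and 56.7 CPM in batch 2, against 59.9, 41.9, 35.8 and 44.2 CPM. It was not called (-0.48 ± 0.46), but was called lower in batch 1 alone (-2.02) and without a filter on low counts (-0.46). For both genes batch 1 and replicate 1 of batch 2 lay below the other 3 libraries with dox.

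Genes of retinoic acid, a signal made by mesoderm that turns on early Hox genes, included 8 of 13 that rose and 3 that fell. Aldh1a2, the enzyme that makes it in the embryo, had 135 and 129 CPM in batch 1 and 44.2, 25.6, 30.4 and 29.6 CPM in batch 2 with dox, against 0.951, 0.716, 0.988 and 1.39 CPM at 0 h (5.99 ± 0.47). It had 0.535 to 1.27 CPM at 24 h without dox. Crabp1, which binds retinoic acid inside cells, had 130 to 375 CPM (median 212) against 4.92, 6.78, 6.23 and 8.26 CPM (5.08 ± 0.40). The receptor genes Rara (-1.24 ± 0.17) and Rarg (-1.46 ± 0.10) fell, and Rarb rose (1.59 ± 0.39).

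Of 16 endothelial genes 5 rose, 3 fell and 8 were not called, and of 8 blood genes 3 rose and 1 fell. Over all genes 27.4% rose and 25.3% fell, so that these counts by themselves say little about either list. Kdr, the Vegf receptor of mesoderm and endothelium, had 94.2 to 145 CPM (median 120) in dox, against 0.951, 0.764, 1.22 and 2.01 CPM at 0 h (6.97 ± 0.74). Fli1, an Ets factor, had 8.9 to 18.6 CPM (median 11.6) against 0.056, 0.0477, 0 and 0.232 CPM (7.09 ± 0.49). Etv2, which starts the vessel and blood lineage, had 7.46 to 48.3 CPM (median 31.1) against 2.24, 2.05, 5.78 and 5.4 CPM (2.51 ± 0.30). Gata2, a factor of blood precursors that is also made elsewhere, rose by 6.14 ± 0.37. Genes of formed vessels gave other values. Pecam1, which stem cells make too, fell by 3.44 ± 0.37, and Tek fell by 2.68 ± 0.46. Cdh5 was not called, at 0.807 to 3.83 CPM (median 1.4) against 0.615, 1.48, 0.228 and 0.463 CPM (1.18 ± 0.50). It was called at 1.28 to 1.87 without batch 1 replicate 2 at 0 h or with dox, or without batch 2 replicate 1 with dox, and at 1.19 to 2.57 by DESeq2, without a count filter or in batch 2 alone. Gata1, the factor of red cells, fell and was at or under 0.348 CPM in every library with dox, and the embryonic globin gene Hbb-bh1 had 7 counts over all 6.

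Marker lists of other cell types are given by their counts and by their summed level. The summed level of 19 visceral endoderm genes was 787 to 1700 CPM with dox and 525 to 1290 CPM at 0 h, and 3 of 16 tested rose and 1 fell. Those that rose were Lama1, Sparc and Rbp4. The defining Afp, Ttr and Hnf4a were not called (Hnf4a was called at -1.27 without batch 2 replicate 1 with dox and at -1.52 with batch 2 replicates 3 and 4 only). They stood at up to 6.23, 8.66 and 7.06 CPM with dox and 0.684, 4.54 and 11.3 CPM at 0 h. In trophoblast the defining gene Elf5 had 8 counts with dox and 2 at 0 h, and Tpbpa and Prl3d1 had 0 with dox. Gata3 rose by 4.80 ± 0.66 with 2.58 to 7.14 CPM (median 4.74) against 0.504, 0.286, 0.076 and 0.0772 CPM. Of 8 trophoblast genes tested 3 rose and 2 fell. The 12 listed, Hand1 included, summed to 20 to 101 CPM with dox and 5.2 to 11 CPM at 0 h. Of 13 neuroectoderm genes tested 2 rose and 5 fell, and the 15 listed summed to 74.6 to 197 CPM with dox and 138 to 193 CPM at 0 h. The defining Sox1 was at or under 0.324 CPM in every library with dox, against 1.12 to 2.63 CPM at 0 h. Pax6, also a defining gene, stood at 0.406 to 2.83 CPM (median 1.95) with dox and 1.62 to 2.78 CPM at 0 h. Pax6 is left out of the counts of named genes. Of 11 germ cell genes tested 8 fell and 1 rose, and the 12 listed summed to 50.3 to 76.7 CPM with dox and 96.6 to 154 CPM at 0 h. Of 10 fibroblast genes tested 6 rose, Thy1 (1.33 ± 0.18) and matrix genes among them, and Dcn fell by 4.85 ± 0.46. The summed level of the 14 listed was 131 to 239 CPM with dox and 46.3 to 129 CPM at 0 h, with Mmp3 at 0 in every library with dox. The part of such cells in the results above was not tested. Immediate early genes that can mark stress of handling rose in 3 of 14 and fell in 5, beside 27.4% and 25.3% of all genes.

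Of 25 genes of proliferation 5 were called higher and 9 lower, with a median of -0.16. Over all genes 27.4% were called higher and 25.3% lower, so that counts near these shares say little by themselves. Mki67 rose by 0.67 ± 0.10 and the cyclin gene Ccnd2 by 2.85 ± 0.31 (38.4 to 92.5 CPM (median 49.8) against 9.85, 10.3, 7.14 and 7.49 CPM). Ccne1 fell by 1.03 ± 0.12, and Mycn and Mycl by 0.85 ± 0.11 and 0.87 ± 0.10. Of 25 glycolysis and hypoxia genes 15 were not called, where 52.7% of all genes were called. Another 8 were lower, among them Ldhb (-1.31 ± 0.09), the glucose transporter gene Slc2a1 (-1.31 ± 0.18) and Pdk1 (-1.98 ± 0.21). The 2 that were higher were Vegfa (2.62 ± 0.28) and Car9 (2.06 ± 0.44). Of 20 imprinted growth genes 13 rose and 4 fell (median 1.55). Igf2, the fetal growth factor, had 942 and 1140 CPM in batch 1 and 511, 146, 210 and 115 CPM in batch 2 with dox, against 11, 18.9, 5.24 and 6.1 CPM at 0 h (5.81 ± 0.53). Peg3 had 751 to 1600 CPM (median 1150) against 138, 117, 169 and 232 CPM (2.76 ± 0.26), and Snrpn fell by 1.93 ± 0.12. H19, the noncoding partner of Igf2, differed in level between the batches in both conditions. It had 6.06 and 6 CPM in batch 1 and 1720, 246, 662 and 614 CPM in batch 2 with dox, against 1.45 and 1.19 CPM in batch 1 and 24.7 and 26.7 CPM in batch 2 at 0 h.

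The change from 0 h was not the same size in both batches for every gene. A test of that difference called 26 genes of 18592 (0.14%). Of these, 15 (0.0807%) had a larger or more positive change in batch 2 and 11 (0.0592%) a smaller or more negative one. In all, 1663 had an unadjusted p below 0.05. Those with the largest called differences included Pcdh7, a protocadherin (2.10 ± 0.31 in batch 1 and 7.13 ± 0.51 in batch 2), Clvs1 (1.12 ± 0.23 and 8.13 ± 0.82) and Nefm (-2.36 ± 0.29 and 0.47 ± 0.26) in one direction. In the other were Aifm2 (2.14 ± 0.33 and -2.01 ± 0.33) and Ldhd. Within batch 2 the libraries with dox were not alike either: the root mean square difference over all genes was 0.864 to 0.935 between replicate 1 and the others and 0.548 to 0.71 among replicates 2 to 4. Replicate 1 had the highest Mesp1 of batch 2 (544 CPM) and the lowest Cdh1 and Nanog (57.4 and 12.3 CPM). Without it 9878 genes were called in place of 9789. Among paraxial mesoderm genes 15 of 18 were called higher in place of 15, and 16 of 18 heart precursor genes in place of 17 of 19. Likewise 16 of 17 mesenchymal genes were called higher in place of 16, and 18 of 21 epithelial genes were called lower in place of 18.

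Batch 1 was also sampled at 12 h. With dox Mesp1 was at 0.224 and 0.382 CPM at 0 h, 208 and 322 CPM at 12 h, and 183 and 348 CPM at 24 h. Foxc2 was at 0.056 and 0 CPM at 0 h, 12.7 and 43.5 CPM at 12 h and 175 and 255 CPM at 24 h. Hoxb1 was at 0.056 and 0 CPM at 0 h, 4.76 and 11.3 CPM at 12 h and 127 and 130 CPM at 24 h. Both were thus higher at 24 h than at 12 h in either library, while Mesp1 lay within its 24 h range at 12 h. Pcdh19 was at 193 and 395 CPM at 12 h and 543 and 977 CPM at 24 h. T was not called against 0 h but was not flat in between. It was at 12.9 and 16.7 CPM at 0 h, 96.2 and 105 CPM at 12 h and 9.81 and 7.38 CPM at 24 h with dox. Without dox it had 124 and 149 CPM at 12 h and 447 and 422 CPM at 24 h. Eomes likewise stood at 71.3 and 51 CPM at 0 h, 228 and 195 CPM at 12 h and 87.2 and 76.7 CPM at 24 h with dox. Cdh1 declined in steps, with 1050 and 1040 CPM at 0 h, 591 and 485 CPM at 12 h and 89.4 and 91.4 CPM at 24 h with dox. So did Nanog, with 169 and 134 CPM at 0 h, 67 and 65.7 CPM at 12 h and 16.5 and 13.1 CPM at 24 h. With 2 libraries a point these courses are given as values.

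**Figure D5:**
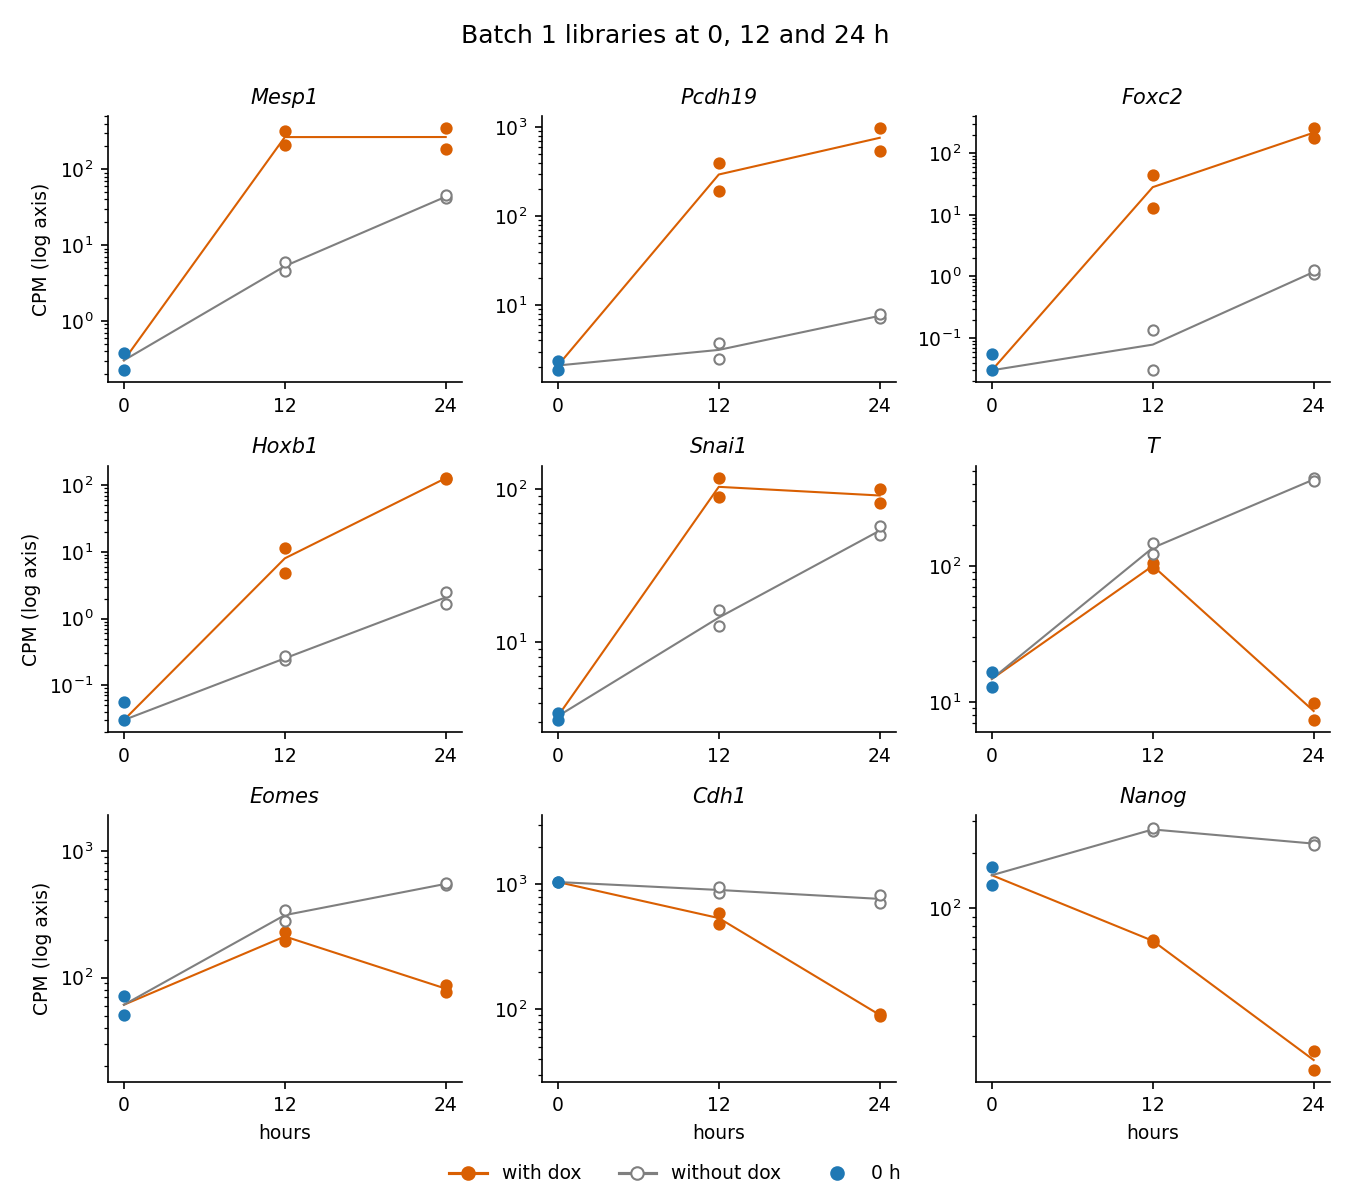
CPM (log axis, 0 drawn at 0.03) in the batch 1 libraries at 0, 12 and 24 h for 9 genes, with dox as orange filled points and without dox as grey open points, each point 1 library and lines through the means, and the shared 0 h libraries in blue. Mesp1 with dox stands at 208 and 322 CPM at 12 h, and T with dox stands at 96.2 and 105 CPM at 12 h and at 9.81 and 7.38 CPM at 24 h.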

How the data were processed

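Reads were trimmed, aligned and counted by the submitters, whose processing notes name Trimmomatic, STAR, HTSeq, DESeq2 and the mouse build mm10. The deposited files hold raw counts per gene for each library, made by the authors without normalization. No source used here states the annotation, the strand setting or the tool versions. Lines of HTSeq that name no gene were left out of library sizes. They held between 4.12% and 9.46% of counts as assigned to no gene and between 3.87% and 5.12% as ambiguous.

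Gene names and exon overlaps came from GENCODE M21 and promoter windows from RefSeq. The 18 libraries of batches 1 and 2 were fitted together with edgeR 4.0.16 in R 4.3.3 (filterByExpr, TMM scaling, robust quasi-likelihood fit, 12 residual degrees of freedom), with 5 conditions and batch as terms. The difference between batches was fitted with 8 groups of batch and condition. P-values were adjusted by Benjamini-Hochberg over 18592 genes and called at 0.05. SE is the absolute log2 fold change over the square root of F. CPM is the count per 1000000 counts assigned to genes. It is not corrected for length, so that levels compare libraries and not genes. Precision follows from depth, and intervals cover counting error only. The scripts were checked on simulated data.

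The members and the 32 lists were chosen with earlier results of these data known. Named genes are Mesp1 and Mesp2 and, in each direction, the 8 largest called changes with at least 5 CPM and libraries apart within batches. They also hold up to 3 called genes of smallest p per list and direction, and in each direction the 4 largest called batch differences and the 4 highest levels. Some genes that the rule names are not reported here. A further 36 called genes were named after their values were seen, as were the genes without a call. Alternatives were another scaling, DESeq2 1.42.0, no count filter, no batch term, the 10 libraries alone and each batch alone. Others were a replicate block, subsets of batch 2, a 2-fold limit and leaving out each library. List counts without batch 1 or batch 2 replicate 1 with dox were added after the data were seen.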

Additional observations from a re-analysis of the deposited data

Results flagged for a closer look

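Within batch 2 the 4 libraries at 24 h with dox were compared for the genes named above. For 28 of 182 genes 1 library stood apart from the other 3, its gap to the nearest being past Dixon's critical value for 4 samples. Chance gives about 5% of genes. In 22 of them replicate 1 was the highest. These included regulators of mesoderm and of mesenchyme, namely Foxc2 (258 CPM), Foxc1 (77.8 CPM), Foxf1 (26.4 CPM), Hand1 (51.6 CPM), Myocd (66.9 CPM), Pax3 (18.8 CPM), Ripply2 (20.7 CPM), Tcf15 (38.7 CPM), Isl1 (6.38 CPM), Prrx1 (29.2 CPM), Prrx2 (35.1 CPM), Twist1 (126 CPM) and Msx2 (25.9 CPM). They also included Klf4 (15.8 CPM), Fgfr2 (69.3 CPM), Rarb (2.71 CPM), Unc5c (25.2 CPM), Col26a1 (52.8 CPM) and Fhod3 (47.1 CPM), and 3 endoderm genes, Afp (6.23 CPM), Ttr (8.66 CPM) and Sox17 (4.33 CPM). Replicate 1 was the lowest for Etv5 (68.1 CPM) and Ccne1 (114 CPM). Replicate 2 was highest for Cdx2 (2.75 CPM) and Ccnd2 (58.1 CPM) and lowest for Cxcr4 (72.7 CPM). Replicate 4 was lowest for Foxa2 (1.49 CPM). The genes are not independent of each other, and the part of the culture, the induction or the library in this was not tested.

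The change from 0 h differed between the batches, by the test of the difference, for 6 of the genes named above. As batch 2 minus batch 1 in log2 fold change, the differences were 7.01 for Clvs1, 5.02 for Pcdh7, 2.84 for Nefm and 2.67 for Eomes, and -4.15 for Aifm2 and -4.18 for Ldhd. Exons of Clvs1, Ldhd and Pcdh7 share 36.3%, 42.2% and 21.1% of their bases with another gene, and no source used here states the counting settings of either batch. The part of the counting in these differences was not tested.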

How the results depend on the processing

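The number of genes called for 24 h dox versus 0 h (9789) stayed within 1.5 times under another scaling, DESeq2, no count filter, no batch term, the 10 libraries alone, batch 1 alone and both subsets of batch 2. It ranged over 8797 to 9883 when 1 library was left out. It was 5957 in batch 2 alone and 4892 with a 2-fold limit, which lowers the count by its own construction. Without a batch term 2089 genes were called for 24 h no dox versus 0 h in place of 4675, and the cause was not tested. The difference between batches, with 26 genes called, rests on single libraries and on the tool. DESeq2 called 140 and no count filter 392, and leaving out 1 library gave 5 to 214 genes. It was 214 without batch 2 replicate 1 with dox, 113 without batch 2 replicate 1 at 0 h and 5 without batch 2 replicate 2 at 0 h. It was 6 and 13 without batch 1 replicate 1 and 2 at 0 h, 8 and 12 without batch 1 replicate 1 and 2 with dox, and 15 without batch 2 replicate 4 with dox. Of 183 named genes 151 kept their call and direction in every alternative in which they were tested. Calls lost in batch 1 alone included Axin2 (0.88), Sall4 (0.45) and Gata1 (-1.64). Those lost in batch 2 alone included Krt8 (1.16), Tnnt2 (1.97), Rarb (0.73), Rbp4 (0.97), Cdx2 (1.28), Fgf4 (-1.28) and Fgf15 (-0.88). Fgfr2 (0.91) and Nrarp (3.79) were among those lost without a batch term. Directions turned in 1 batch alone for Ldhd (0.87), Lefty2 (-1.66) and T (-0.85) in batch 1, and for Aifm2 (-2.01) and Nefm (0.48) in batch 2, and the cause was not tested. List members called lower moved by over 1.5 times in 4 cases. They were, without batch 1 replicate 1 with dox, 1 in place of 2 head mesoderm, 3 in place of 5 neuroectoderm and 2 in place of 6 Wnt genes. Without batch 2 replicate 1 with dox it was 2 in place of 1 visceral endoderm gene. At 12325443 counts 1 count is 0.0811 CPM, which limits what can be said of genes near 0.

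The numbers of the replicates share only a number. Deviations of same-numbered libraries with dox and at 0 h correlated at 0.024 in batch 1 and at 0.38 and 0.135 in batch 2. Each batch has too few 0 h libraries to tell more. With a replicate block 10023 genes were called for 24 h dox versus 0 h, 6205 for 24 h dox versus 24 h no dox and 6020 for 24 h no dox versus 0 h, against 9789, 5584 and 4675 without it. Of the named genes 1 lost its call with the block, Nefm (-1.08).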

Other observations

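Batch 3 holds 2 further libraries of genotype WT at 24 h with dox that enter no comparison here. In them Mesp1 was at 120 and 248 CPM, Foxc2 at 124 and 75.6 CPM, Pcdh19 at 215 and 295 CPM, Hoxb1 at 92.2 and 38.1 CPM and Myocd at 16.4 and 5.66 CPM. The genes that fell against 0 h in the other batches had 373 and 275 CPM (Cdh1), 38.2 and 49.5 CPM (Nanog) and 458 and 466 CPM (Pou5f1). Both Pou5f1 values were above every library with dox of batches 1 and 2 (117 to 242 CPM) and near the lowest at 0 h (479 CPM). Cdh1 at 373 CPM was also above every library with dox of those batches. Both Pcdh19 values, Hoxb1 at 38.1 CPM and Myocd at 5.66 CPM were below all of them. The other values given so far lay within their range. The streak gene T was at 14 and 72.5 CPM and Eomes at 152 and 328 CPM. T thus differed between the 2 libraries by more than between replicates of batch 1 with dox, but by less than across those of batch 2. Eomes at 328 CPM was above every library with dox of batches 1 and 2.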
